A study of Mus musculus with 20 samples.

Results

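Perforin and the granzymes are the proteins with which a cytotoxic T cell kills, and 8 genes of this system were followed in CD8+ effector T cells taken from 4 sites of mice with acute graft versus host disease. The genes were Prf1 (perforin), the granzymes Gzma, Gzmb, Gzmc, Gzmk and Gzmm, the granule proteoglycan Srgn (serglycin) and the granule membrane protein Lamp1. They were chosen by name, and each was represented by 1 probe among the 20886 genes that could be named on the array. Of the 8 genes, 5 (Prf1, Gzma, Gzmb, Srgn and Lamp1) were among the 8057 genes bright enough to be tested, which asks that 4 or more of the 5 arrays of some site lie well above background.

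A killer cell stores these proteins in secretory lysosomes, where serglycin holds the positively charged granzymes and perforin in a packed, inactive state. On contact with a target cell the granule fuses with the plasma membrane, LAMP1 (CD107a) appears on the killer cell's surface, and perforin assembles into pores through which granzymes enter the target. Granzyme B cleaves substrates after aspartate and starts caspase-dependent death, whereas granzyme A cleaves after basic residues and acts through other substrates.

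Recipients were female m-act OVA C57Bl/6 mice aged 8 to 16 weeks, which carry an ovalbumin transgene under the CAG promoter and so display this antigen in most tissues. They were given 11 Gy of total body irradiation and then 3000000 marrow cells and 15000000 splenocytes from OT-I donors, whose CD8+ T cells carry 1 transgenic receptor for an ovalbumin peptide. OT-I cells bore the CD45.1 allele, the other grafted cells and the recipients CD45.2, and on day 4 CD45.1+ cells were drawn with magnetic beads from liver, lung, small intestine and blood. Total RNA went through 2 rounds of amplification and was hybridised to 1-colour Agilent arrays, 5 per site and 20 in all, and every group shared the same donor and recipient genotypes and the same irradiation. No group was untransplanted, so blood is a site of comparison and not an untreated control, and each result below compares cells of the same transfer. The labels do not say which arrays came from the same mouse or whether mice were pooled, and the p-values rest on the spread among arrays, which may be technical in part.

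All levels are log2 processed signal minus the array's 75th percentile, a scale on which 1 unit is a doubling and on which levels of different probes cannot be set against each other. The 75th percentile lay between 823 and 2848 signal units, and between 22.6% and 38.7% of probes were well above background. T cell genes were detected throughout: 14 of 15 listed CD8 T cell genes were well above background on all 20 arrays. This does not measure T cell content, since the mean of these genes varied between arrays, as given below. Of 3 listed CD4 T cell genes, Cd4 was well above background on 19, Cd40lg on 13 and Foxp3 on 11 of 20 arrays. The part of CD4 T cells in the results was not tested. The arrays labelled liver 5 and small intestine 5 went against their labels in markers of intestinal epithelium: the mean of 8 such genes was -2.92 on small intestine array 5 against -0.20 to 4.18 on the others of that site, and 0.74 on liver array 5 against -2.35 to -1.94 on the other liver arrays. Some results for these sites are therefore also given without that pair of arrays. They are Prf1 in small intestine against blood and between organs, the Gzmb means and some counts of called genes. Values of Gzma, Srgn, Lamp1, the ratios and the T cell scale are given with both arrays only. Natural killer and mast cells also hold granule proteases, and 7 and 9 of their markers were listed. Of the natural killer markers Ncr1 was well above background on no array, Eomes on 1, Klra4 on 4, Klre1 on 5, Klra8 on 12, Klrb1c on 12 and Tyrobp, which myeloid cells share, on 14 of 20. The mean of this list ran from -1.78 to -0.37 over blood arrays, from -1.31 to -0.39 over liver, from -0.89 to 0.20 over lung and from -1.43 to -0.87 over the small intestine. Of the mast cell markers Cpa3, Mcpt1, Mcpt2, Mcpt4, Cma1 and Ms4a2 were well above background on no array, Hdc was on 8 and Kit and Tpsb2 on 6 each. The part of such cells in the results was not tested.

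The 3 genes on which the results turn have the following RefSeq sequences directly before their starts (assembly GRCm38.p6, written 5′ to 3′ along the gene), shown because Prf1 and Gzmb varied together over the arrays (Pearson r = 0.91) and Gzma was only loosely related to them. Capitals mark matches, on either strand, to 6 motifs searched in the 250 bases before a start, whose letters are given after the sequences. The Prf1 stretch is chr10:61297586-61297750 (plus strand), cut where the annotated gene begins. The Gzmb stretch is chr14:56262335-56262584 (minus strand) and the Gzma stretch is chr13:113100982-113101231 (minus strand).
Prf1: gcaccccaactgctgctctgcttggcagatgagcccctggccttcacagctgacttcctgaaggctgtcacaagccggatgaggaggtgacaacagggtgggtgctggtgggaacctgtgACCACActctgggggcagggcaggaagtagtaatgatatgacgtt
Gzmb: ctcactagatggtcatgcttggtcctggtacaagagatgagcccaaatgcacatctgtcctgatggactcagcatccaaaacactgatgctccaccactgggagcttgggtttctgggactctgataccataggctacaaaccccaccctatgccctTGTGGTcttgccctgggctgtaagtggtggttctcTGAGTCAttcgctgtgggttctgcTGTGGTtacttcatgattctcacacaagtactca
Gzma: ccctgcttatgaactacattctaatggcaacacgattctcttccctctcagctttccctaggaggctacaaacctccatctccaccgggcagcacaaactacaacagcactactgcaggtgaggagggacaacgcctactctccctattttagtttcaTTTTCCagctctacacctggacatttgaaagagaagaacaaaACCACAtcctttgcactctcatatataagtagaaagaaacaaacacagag
Prf1 had a single match, to RUNX, 130 to 125 bases before the listed transcript start, which lies 85 bases beyond the printed stretch. Gzmb had RUNX matches 93 to 88 and 34 to 29 bases before its start and an AP-1 match at 58 to 52. Gzma had a RUNX match at 50 to 45 and an NFAT match at 92 to 87. No matches overlapped. The RUNX motif was searched as TGTGGT, which 7 of the 10 windows listed for the 8 genes held, belonging to 7 genes (all but Gzmk), beside 14.0% of 32851 windows of all genes. The AP-1 motif, searched as TGANTCA, was in 1 of the 10 windows and in 6.75% of all windows. The NFAT motif, searched as GGAAAA, was in 3 of the 10 windows and in 20.4% of all windows. The T-box motif, searched as GGTGTGA, was in 2 of the 10 windows (of Gzmk and Gzmm) beside 3.33% of all windows, and in none of the sequences printed here. The STAT motif (TTCNNNGAA, in 1 of the 10 windows and in 7.02% of all windows) was likewise absent from them. The same was true of the TATA box letters TATAAA, which 1 of the 10 windows and 12.4% of all windows held. These are letter matches and not measured binding.

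Prf1, which encodes the pore-forming protein, had its highest mean in blood, lower means in each organ and its lowest mean in the small intestine, where the difference from blood passed the test. In blood its level was 0.24, 0.20, 1.64, 1.07 and -0.39 on arrays 1 to 5 (0.55 ± 0.80, mean ± SD, n = 5). In liver it was 0.02, -1.57, 0.46, -0.48 and -1.21 (-0.56 ± 0.84, n = 5). In lung it was -0.22, -0.60, -0.14, -2.28 and -2.35 (-1.12 ± 1.11, n = 5). The order of the means was thus blood, liver, lung and small intestine, and the groups overlapped in every pair of sites. In the small intestine it was -1.47, -2.50, -0.83, -2.51 and -0.19 (-1.50 ± 1.03, n = 5), with array 5, 1 of the pair that went against its label, at the level of blood. The probe was dim: all 5 blood arrays were well above background, but only 3 liver arrays, 2 lung arrays and 1 small intestine array were, so that Prf1 was tested only because of its level in blood, a filter that favours a difference from blood.

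Against blood, Prf1 was lower in the small intestine by a log2 difference of -2.05 ± 0.56 (SE; 95% interval -3.21 to -0.89) (limma, adjusted p = 0.0295). Since 4 of the 5 small intestine arrays were not well above background, this is not an exact fold. It was lower on 4 of 5 slides, each slide carrying 1 array per site, and on slide 5 it was higher by 0.21. With liver array 5 and small intestine array 5 left out the difference was -2.38 (adjusted p = 0.00753 by limma). In lung the difference from blood was -1.67 ± 0.56 (95% interval -2.83 to -0.51) with lower signal on 5 of 5 slides, and it did not pass the threshold (limma, adjusted p = 0.124). In liver it was -1.11 ± 0.56 (95% interval -2.27 to 0.05), again lower on 5 of 5 slides (limma, adjusted p = 0.997).

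The call for Prf1 in the small intestine was a narrow one. It was lost without any filter on dim probes (adjusted p = 0.0579 by limma) and on a scale set by the probes bright on all arrays (-1.87, adjusted p = 0.0596), and also when any of blood arrays 2, 3 and 4 or small intestine arrays 1, 2 and 4 was left out, with adjusted p from 0.0549 to 0.0936 by limma. With the normexp background correction the difference was -1.04 (limma, adjusted p = 0.0236), and under the same correction it was -0.81 in lung and -0.63 in liver, all smaller by more than 1.5 times. Leaving out lung array 1 brought Prf1 in lung past the threshold (-1.90, adjusted p = 0.0488 by limma). Between organs, none of the Prf1 differences passed. Lung differed from liver by -0.56, the small intestine from liver by -0.94 and from lung by -0.38, each with an SE of 0.56 (limma, adjusted p = 0.5, 0.31 and 0.895). With liver array 5 and small intestine array 5 left out, these differences were -0.73, -1.44 and -0.71. None of them passed in any of 12 alternative settings. The neighbouring sites in the order of means therefore did not differ beyond their spread.

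**Figure D1:**
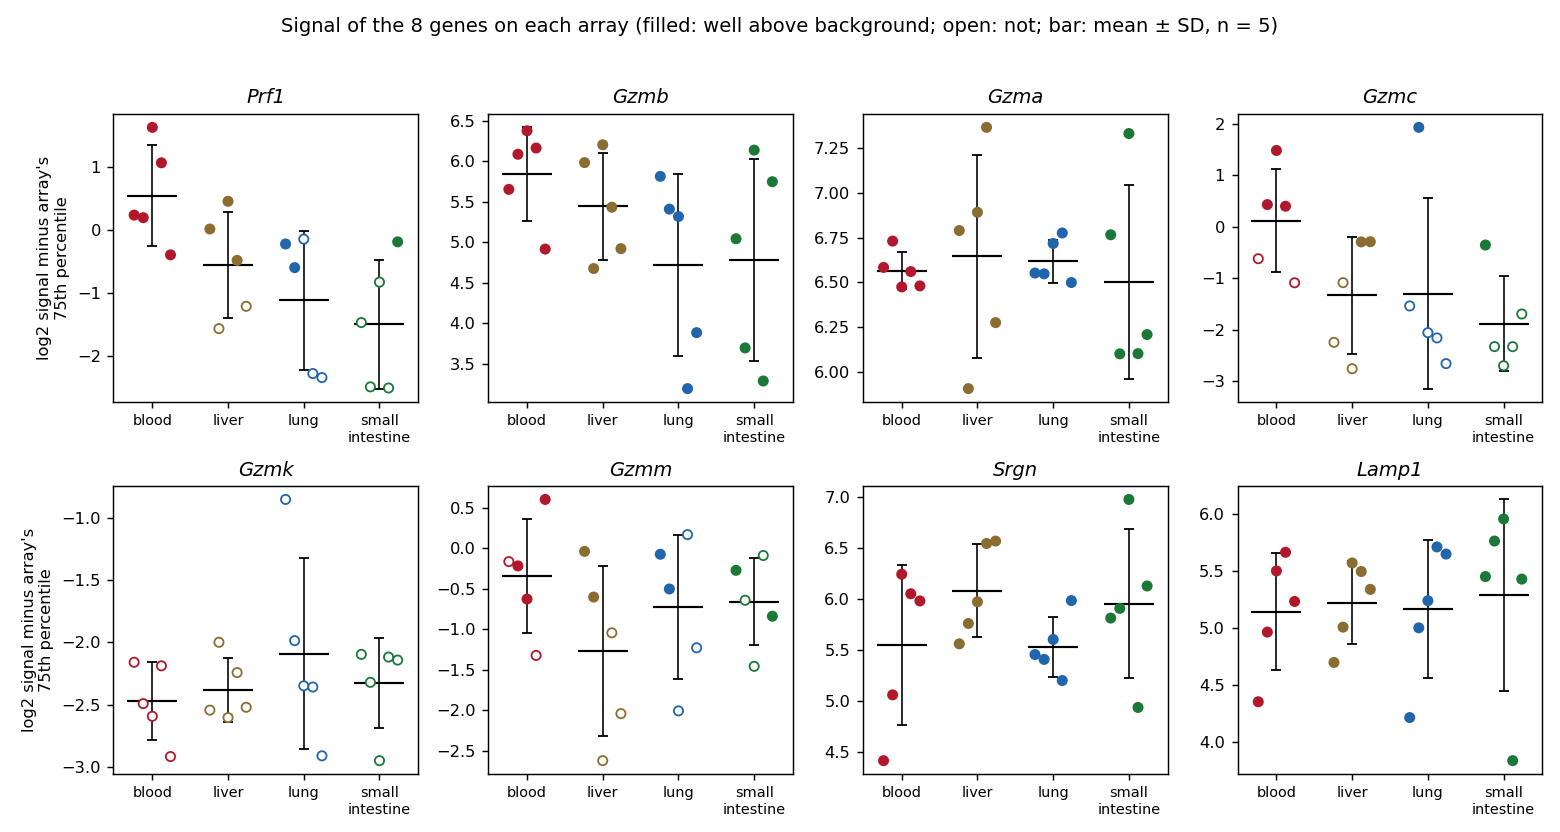
Log2 signal minus the array's 75th percentile (y axis, a separate range in each panel) of the 8 genes on each of 5 arrays from blood, liver, lung and small intestine; filled points are well above background, open points are not, and lines give the mean ± SD. The Prf1 means run from 0.55 in blood to -1.50 in the small intestine, where most points are open, Gzma lies near 6.5 at every site, and no Gzmk point is filled.

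Gzmb, the aspartate-cutting granzyme, was bright on 20 of 20 arrays, and its means were ordered with both mucosal sites below liver and blood. In blood it was 5.65, 6.09, 6.38, 6.16 and 4.92 on arrays 1 to 5 (5.84 ± 0.58, n = 5). In liver it was 5.98, 4.68, 6.20, 5.43 and 4.92 (5.44 ± 0.66, n = 5). These sites overlapped over nearly their whole range. In lung it was 5.81, 5.41, 5.32, 3.20 and 3.89 (4.72 ± 1.12, n = 5), and arrays 4 and 5 lay apart from the others. In the small intestine it was 5.04, 3.70, 6.14, 3.29 and 5.75 (4.78 ± 1.25, n = 5), low on arrays 2 and 4 and close to blood on arrays 3 and 5. The same arrays, lung 4 and 5 and small intestine 2 and 4, were the lowest for Prf1.

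None of the Gzmb differences passed the test. Against blood, Gzmb differed by -1.11 ± 0.56 in lung (95% interval -2.27 to 0.04, limma adjusted p = 0.158, lower on 4 of 5 slides) and by -1.06 ± 0.56 in the small intestine (95% interval -2.21 to 0.10, limma adjusted p = 0.186, lower on 4 of 5 slides). In liver the difference was -0.40 ± 0.56 (95% interval -1.55 to 0.76, limma adjusted p = 0.997). The intervals still contain a decrease of more than 2 log2 units in lung and small intestine. Without small intestine array 5 and liver array 5 the small intestine mean was 4.54 ± 1.30 (n = 4) and the liver mean 5.57 ± 0.68 (n = 4).

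Gzma, the granzyme that cuts after basic residues, was nearly level across the sites on the array scale. In blood it was 6.58, 6.73, 6.47, 6.56 and 6.48 (6.57 ± 0.10, n = 5), the tightest group of any of the 8 genes. In lung it was 6.55, 6.55, 6.72, 6.78 and 6.50 (6.62 ± 0.12, n = 5). Liver and small intestine had similar means and a wider spread, with medians of 6.79 and 6.21 beside 6.56 in blood. In liver it was 6.79, 5.91, 6.89, 7.37 and 6.28 (6.65 ± 0.57, n = 5), and in the small intestine 6.77, 6.10, 7.33, 6.10 and 6.21 (6.50 ± 0.54, n = 5). The differences from blood were 0.08 in liver, 0.05 in lung and -0.06 in the small intestine, each with an SE of 0.27, and the 95% intervals together ran from -0.63 to 0.64. On this scale, changes of this probe from blood larger than 0.64 log2 units in either direction lie outside all of those intervals. The signs of these small values depend on the scale: relative to the T cell genes the small intestine difference from blood was 0.50 ± 0.31 (limma, adjusted p = 0.276). The small intestine difference from liver was then 0.62 ± 0.31, lower on 0 of 5 slides (limma, adjusted p = 0.278). The bound of 0.64 does not hold for that scale.

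Gzmc, Gzmk and Gzmm were too dim to be tested. Gzmc, of the granzyme cluster next to Gzmb, was well above background on 7 of 20 arrays, 3 of them in blood, where it read -0.62, 0.43, 1.48, 0.40 and -1.09. In liver it was -2.25, -1.08, -2.76, -0.29 and -0.29, and in the small intestine -0.35, -2.33, -2.70, -2.33 and -1.69. In lung it was -1.54, 1.93, -2.06, -2.16 and -2.66, so that lung array 2 held the highest value of all 20 arrays. Its probe can share signal with the near-identical granzymes of the same cluster, and which of them it read was not tested. When all genes were fitted without the filter, the 95% interval of the Gzmc difference of small intestine from blood was -3.46 to -0.55 (limma, adjusted p = 0.139). Gzmk, a granzyme of the Gzma locus, was not well above background on any of 20 arrays. Gzmm, a granzyme known from natural killer and innate-like lymphocytes, was well above background on 9 of 20 arrays, spread over all 4 sites, and its level ran from -2.62 on a liver array to 0.61 on a blood array.

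The granule carrier Srgn, on which granzymes and perforin are packed, was bright on all arrays and did not follow Prf1. In blood it was 4.41, 5.06, 6.24, 6.05 and 5.98 (5.55 ± 0.78, n = 5), in liver 5.56, 5.76, 5.97, 6.54 and 6.57 (6.08 ± 0.46, n = 5). In lung it was 5.45, 5.41, 5.60, 5.20 and 5.98 (5.53 ± 0.29, n = 5), and in the small intestine 5.81, 5.91, 6.98, 4.94 and 6.13 (5.95 ± 0.73, n = 5). Blood arrays 1 and 2 were the low ones, and all groups overlapped. The difference from blood was 0.53 in liver, -0.02 in lung and 0.40 in the small intestine, each ± 0.37 (limma, adjusted p = 0.997, 0.969 and 0.392). Lung was lower than liver on 5 of 5 slides, by -0.55 ± 0.37, without passing the test (limma, adjusted p = 0.383).

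Lamp1, the membrane protein that marks degranulation when it reaches the cell surface, differed little between site means on the array scale. Blood had a mean of 5.14 ± 0.51, liver of 5.22 ± 0.36, lung of 5.16 ± 0.60 and the small intestine of 5.29 ± 0.84 (SD, n = 5 each). In the small intestine it was 5.45, 5.76, 5.95, 3.84 and 5.43, with array 4 far below the rest. The differences from blood, between 0.02 and 0.14 with an SE of 0.37, were smaller than their errors. Relative to the T cell genes of the same array the difference was 0.71 ± 0.36 in small intestine against blood (limma, adjusted p = 0.195) and 0.83 ± 0.36 in small intestine against liver, higher on 5 of 5 slides (limma, adjusted p = 0.278). The part of other cells in these differences was not tested. A transcript level says nothing of how much LAMP1 was on the cell surface.

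Counted over the 5 genes tested, 1 (Prf1) was called in small intestine against blood, where 10.9% of all tested genes were. Prf1 passed the filter only through its level in blood, which favours this call, and without the filter the call was lost. No member was called in the other comparisons by limma: in liver against blood 0% of all tested genes were called, in lung against blood 0.819%, in lung against liver 0.285%, in small intestine against liver 0% and in small intestine against lung 0.149%. The F-test across the 4 sites called 0.757% of all genes and none of the 5, with Prf1 at an adjusted p of 0.096 (limma). At an unadjusted p under 0.05, Prf1 also counted in lung against blood, where 33.8% of all tested genes did, and none of the 5 counted in the remaining 4 comparisons. The median difference of the 5 genes was -0.06 in small intestine against blood, beside -0.36 over all genes, and -0.02 in lung against blood, beside -0.30. Of 48 pairings of a gene with a comparison, over all 8 genes, 0 had groups that did not overlap. The share over all genes is not given beside this count, so nothing particular to these genes is read from it.

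**Figure D2:**
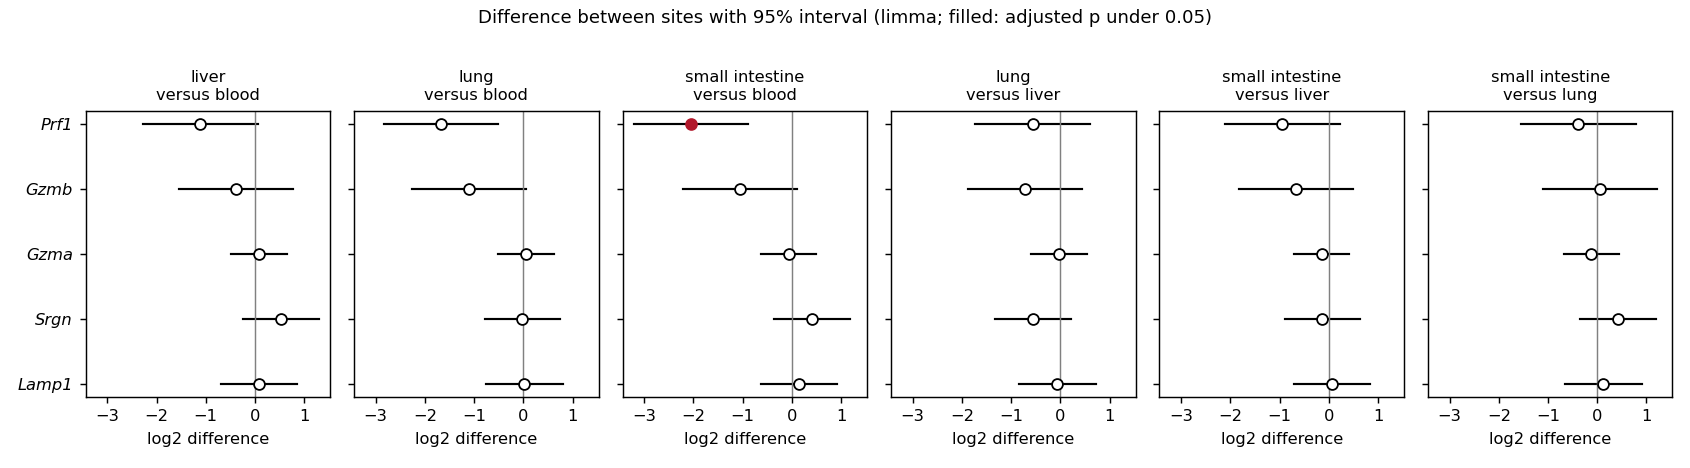
Log2 difference between sites (x axis) with its 95% interval for the 5 tested genes in all 6 comparisons, from limma over 20 arrays; the filled point passed an adjusted p of 0.05. Prf1 in small intestine against blood, at -2.05, is the filled point, and the Gzma intervals, the narrowest, cross 0 in every panel.

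Prf1 and Gzmb varied together from array to array. Their Pearson correlation over 20 arrays was 0.91 (Spearman 0.86) and within sites, after the site means were taken out, 0.92. Without lung array 4 and small intestine array 4, the arrays farthest from the Gzmb median, it was 0.89, and over the 11 arrays with Prf1 well above background it was 0.79. Gzma was only loosely related to either, with 0.29 to Prf1 and 0.42 to Gzmb, and Srgn was related most closely to Lamp1, at 0.70. With the mean of the CD8 T cell genes the correlation was 0.73 for Gzmb, 0.63 for Prf1, 0.53 for Srgn, 0.45 for Gzma and 0.37 for Lamp1. The part of T cell content in the relation of Prf1 to Gzmb was not tested. These correlations are a description, since all genes of an array share its RNA, amplification and scaling.

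**Figure D3:**
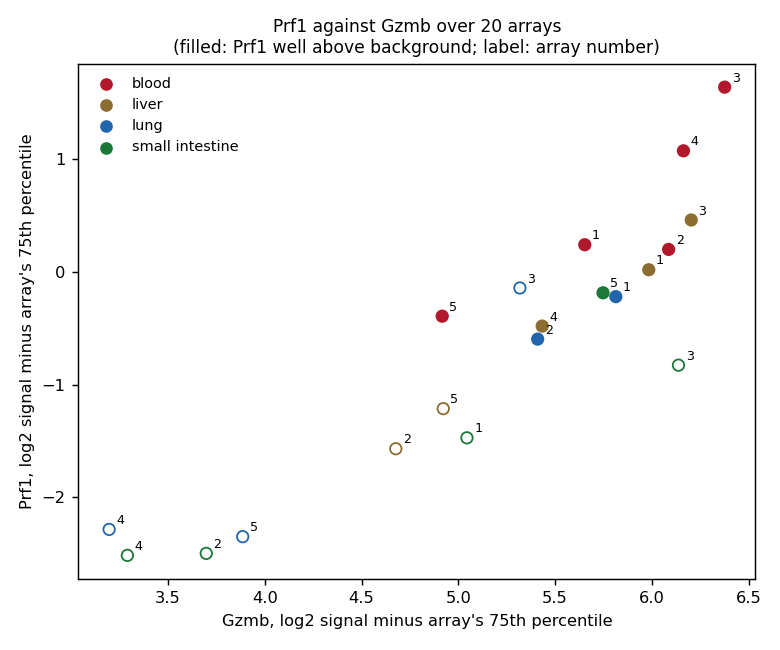
Prf1 against Gzmb, both as log2 signal minus the array's 75th percentile, on 20 arrays coloured by site and labelled with the array number; filled points have Prf1 well above background. The points lie along a line (Pearson r = 0.91), with lung 4 and 5 and small intestine 2 and 4 together at the low end and blood 3 and 4 at the top.

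Over the same 20 arrays and all tested genes, the 5 most like Prf1 were Gzmb (0.91), Toe1 (0.89), Ano10 (0.88), Prr5 (0.87) and Mapk14 (0.86). Those most like Gzmb were Smap2 (0.92), Prf1 (0.91), Gnptab (0.91), Ppm1h (0.89) and Otulin (0.88). Those most like Gzma were S100a13 (0.81), Smdt1 (0.76), Timm10b (0.75), Ndufb7 (0.75) and Ebp (0.75), and none of these was among the 5 of Prf1 or Gzmb. Residual SD within sites was 0.95 for Prf1 and 0.95 for Gzmb, above that of 86.3% and 85.9% of tested genes, and 0.40 for Gzma, above that of 20.9%.

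The ratio of Prf1 to Gzmb within an array had a lower mean in each organ than in blood. Most organ values of it rest on Prf1 signal near background, which was well above it on 3 liver, 2 lung and 1 small intestine array. The log2 ratio was lower than in blood by -0.71 in liver, -0.56 in lung and -0.996 in the small intestine, and on 5 of 5 slides in each organ. The SD of the ratio was 0.42 for blood, 0.20 for liver, 0.35 for lung and 0.47 for the small intestine, and each organ overlapped with blood. The ratio of Prf1 to Gzma was lower than in blood by -1.19 in liver, -1.72 in lung and -1.99 in the small intestine. No test was made on ratios, which show unequal change and not which gene changed.

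Levels of T cell genes moved with these results. The mean of the 14 tested CD8 T cell genes ran from 5.06 to 5.50 over the blood arrays, from 5.39 to 5.65 over liver, from 4.71 to 5.42 over lung and from 3.76 to 5.85 over the small intestine. It was lowest on small intestine arrays 4 and 2 (3.76 and 4.00), where the intestinal epithelium genes read 4.18 and 3.58 and Prf1 and Gzmb were low. On lung arrays 4 and 5 the mean of 5 alveolar macrophage genes was 6.42 and 5.46. It was also high on lung arrays 1 and 2, at 3.83 and 3.94, where Prf1 read -0.22 and -0.60 and Gzmb 5.81 and 5.41, and was -2.22 on lung array 3. The T cell mean was 5.17, 5.08, 5.42, 4.71 and 5.32 on lung arrays 1 to 5, and the part of macrophages in the lung values was not tested. In bulk samples, fewer T cells in a fraction and less RNA of a gene per T cell cannot be told apart.

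Set against the T cell genes of the same array, Prf1 read -4.82, -5.12, -3.86, -4.39 and -5.70 in blood (-4.78 ± 0.70, n = 5). In the small intestine it read -6.18, -6.49, -6.67, -6.27 and -5.71 (-6.27 ± 0.36, n = 5). On this scale every small intestine array lay below every blood array, by as little as 0.01 between array 5 of each. Prf1 was well above background on only 1 small intestine array, so most values of that site are signal near background set against T cell genes. The share of all genes that did so is not given beside it. The difference was -1.49 ± 0.46, lower on 5 of 5 slides, and did not pass the test (limma, adjusted p = 0.133). Differences of like size were seen in lung, at -1.48, and in liver, at -1.31, each lower than blood on 5 of 5 slides and each past no threshold (limma, adjusted p = 0.2 and 0.973). The median of all genes moved from -0.36 to 0.21 in small intestine against blood under this scaling, so differences are to be read beside that shift.

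On the same scale Gzmb had a mean of 0.51 ± 0.51 over blood arrays, -0.09 over liver, -0.42 over lung and 0.02 ± 0.37 over the small intestine (n = 5 each). Its difference from blood was -0.59 in liver, -0.92 in lung and -0.49 in the small intestine, SE 0.41 (limma, adjusted p = 0.996, 0.243 and 0.437). Srgn differed by 0.97 in the small intestine against blood (limma, adjusted p = 0.133), and the part of other cells in this difference was not tested. On this scale no gene of the 5 passed in any comparison.

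**Figure D4:**
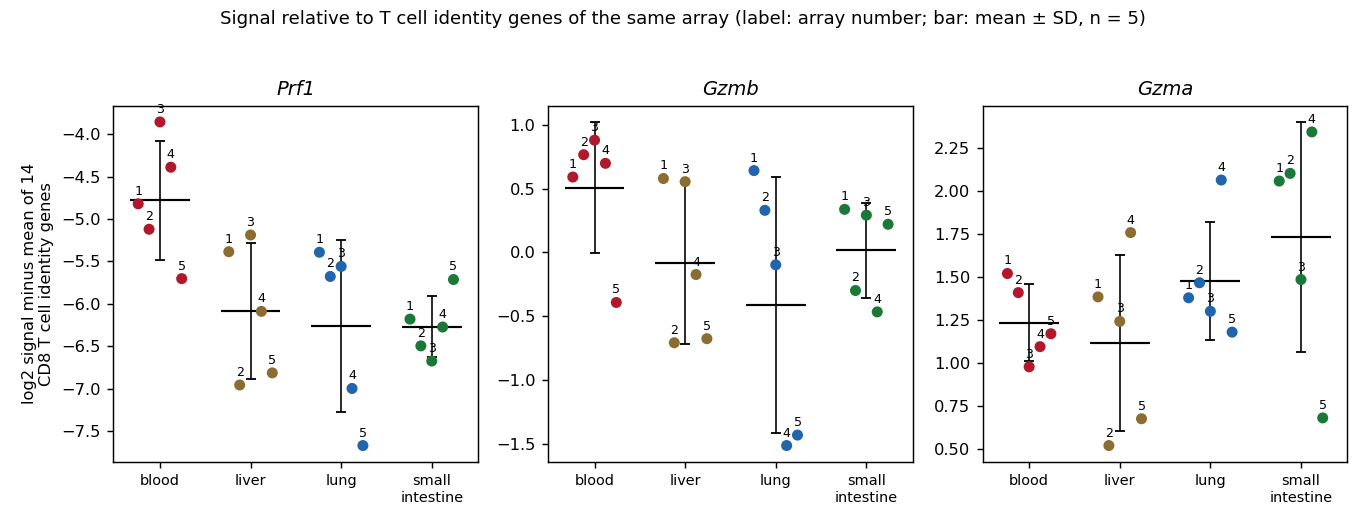
Log2 signal of Prf1, Gzmb and Gzma minus the mean of 14 CD8 T cell identity genes on the same array (y axis, a separate range in each panel), by site; points are labelled with the array number, and lines give the mean ± SD of 5 arrays. Prf1 in the small intestine (-6.67 to -5.71) lies below all blood arrays (-5.70 to -3.86), narrowly so for the closest arrays. Its difference did not pass the test (limma, adjusted p = 0.133), and Prf1 was well above background on only 1 small intestine array. The share of all genes so separated is not given. Gzmb and Gzma overlap between sites.

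Around these genes, 42 others of the granule pathway were examined, all with a probe and 26 of them tested. The other granzymes of the Gzmb cluster were faint: Gzmf, Gzmg and Gzmn were not well above background on any array, Gzme was on 1 array and Gzmd on 7, and none of the 5 was tested. In small intestine against blood, 1 of 26 was called lower and 0 higher, or 3.85%, beside 10.9% of all genes. In the other 5 comparisons none of the 26 was called by limma. At an unadjusted p under 0.05 there were 2 in liver against blood (7.69%, beside 2.81% of all tested genes), 6 in lung against blood (23.1% beside 33.8%) and 8 in lung against liver (30.8% beside 14.9%). In small intestine against blood there were 6 (23.1% beside 32.8%). In small intestine against liver there were 5 (19.2% beside 22.1%) and in small intestine against lung 0 (beside 8.25%). The median difference of the 26 was -0.00 in small intestine against blood and 0.24 in liver against blood, where that of all genes was -0.36 and 0.05.

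The called gene was Unc13d, which encodes Munc13-4, the priming factor that readies cytotoxic granules for fusion. In blood it was 1.99, 3.04, 3.29, 3.16 and 2.32, and in the small intestine 1.29, -2.48, 2.22, -2.23 and 2.05. Small intestine arrays 2 and 4 were again the low ones, and only arrays 3 and 5 reached the range of blood. The difference was -2.59 ± 0.80, lower on 5 of 5 slides (limma, adjusted p = 0.0444). Only 3 of the 5 small intestine arrays were well above background for Unc13d, so this is not an exact fold. Arrays 2 and 4 of that site also had the lowest means of T cell genes (4.00 and 3.76). The part of T cell content in the difference was not tested. The call was lost in 6 of 12 other settings. They were quantile normalization (adjusted p = 0.0638), the scale of probes bright on all arrays (0.0697), the T cell identity scale (-2.03, adjusted p = 0.121), no filter (0.0828), pairwise fits (0.1) and the deposited value table (0.0638), all by limma. It was also lost in 13 of 20 omissions of a single array, with -1.93 without small intestine array 2 (limma, adjusted p = 0.137). Unc13d also had the smallest p in small intestine against liver, at -2.31 ± 0.80, and was at -1.32 ± 0.80 in small intestine against lung, neither past the threshold (limma, adjusted p = 0.151 and 0.771).

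Among genes of processing and sorting, 0 of 9 tested were called in any comparison by limma. Cst7, which encodes cystatin F, an inhibitor of the cathepsins that activate granzymes, differed by -0.96 ± 0.35 in small intestine against liver (limma, adjusted p = 0.161). Against blood it differed by -1.04 ± 0.35 in the small intestine, lower on 5 of 5 slides (limma, adjusted p = 0.0566). Ctsd, a lysosomal protease, differed by 0.77 ± 0.30 in lung against blood and by -0.59 ± 0.30 in small intestine against lung (limma, adjusted p = 0.124 and 0.642). Calr, the chaperone calreticulin, which also binds perforin, differed by 0.59 ± 0.25 in liver against blood (limma, adjusted p = 0.997). Of the granule membrane and release genes 7 of 13 were tested, and Cd63, a lysosomal tetraspanin found in many cell types, had a difference of 4.28 ± 1.57 in lung against blood (limma, adjusted p = 0.124). Cd63 was well above background on 4 lung and 4 small intestine arrays, but on only 2 liver arrays and 1 blood array. It was thus tested only because of its level in lung and small intestine, a filter that favours a difference from blood and liver, and 4.28 is not an exact fold. Cd63 was bright on lung arrays 1, 2, 4 and 5, at 1.72 to 5.33, and at -2.41 on lung array 3, the lung array with alveolar macrophage genes at -2.22. The part of such cells in this difference was not tested.

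Of the inhibitors, which protect a killer cell from its own granzymes, 3 of 4 were tested and 0 called by limma in any comparison. Of the regulators 6 of 7 were tested and 0 called. Id2, a partner factor of effector differentiation, differed by 0.79 ± 0.34 in liver against blood and by -1.01 ± 0.34 in lung against liver (limma, adjusted p = 0.997 and 0.25). Hopx, a transcriptional cofactor of effector T cells, differed by -1.05 ± 0.35 in lung against liver (limma, adjusted p = 0.247). Eomes, a T-box factor of cytotoxic cells, was well above background on 1 array and was not tested. Of the target-cell substrates 1 of 4 was tested. With liver array 5 and small intestine array 5 left out, 5 of the 26 pathway genes (19.2%) were called in small intestine against blood, beside 26.3% of all tested genes: Ctsl, Cst7, Cd63, Unc13d and Serpinb9. In small intestine against liver 3 (11.5%) were called, Cst7, Cd63 and Unc13d, beside 16.3% of all. The directions were mixed. With all arrays, Ctsl (1.90) and Cd63 (4.19) were higher in small intestine than in blood, and Cst7 (-1.04), Unc13d (-2.59) and Serpinb9 (-2.08) were lower. Cd63 passed the filter only through lung and small intestine, which favours its calls against blood and liver.

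**Figure D5:**
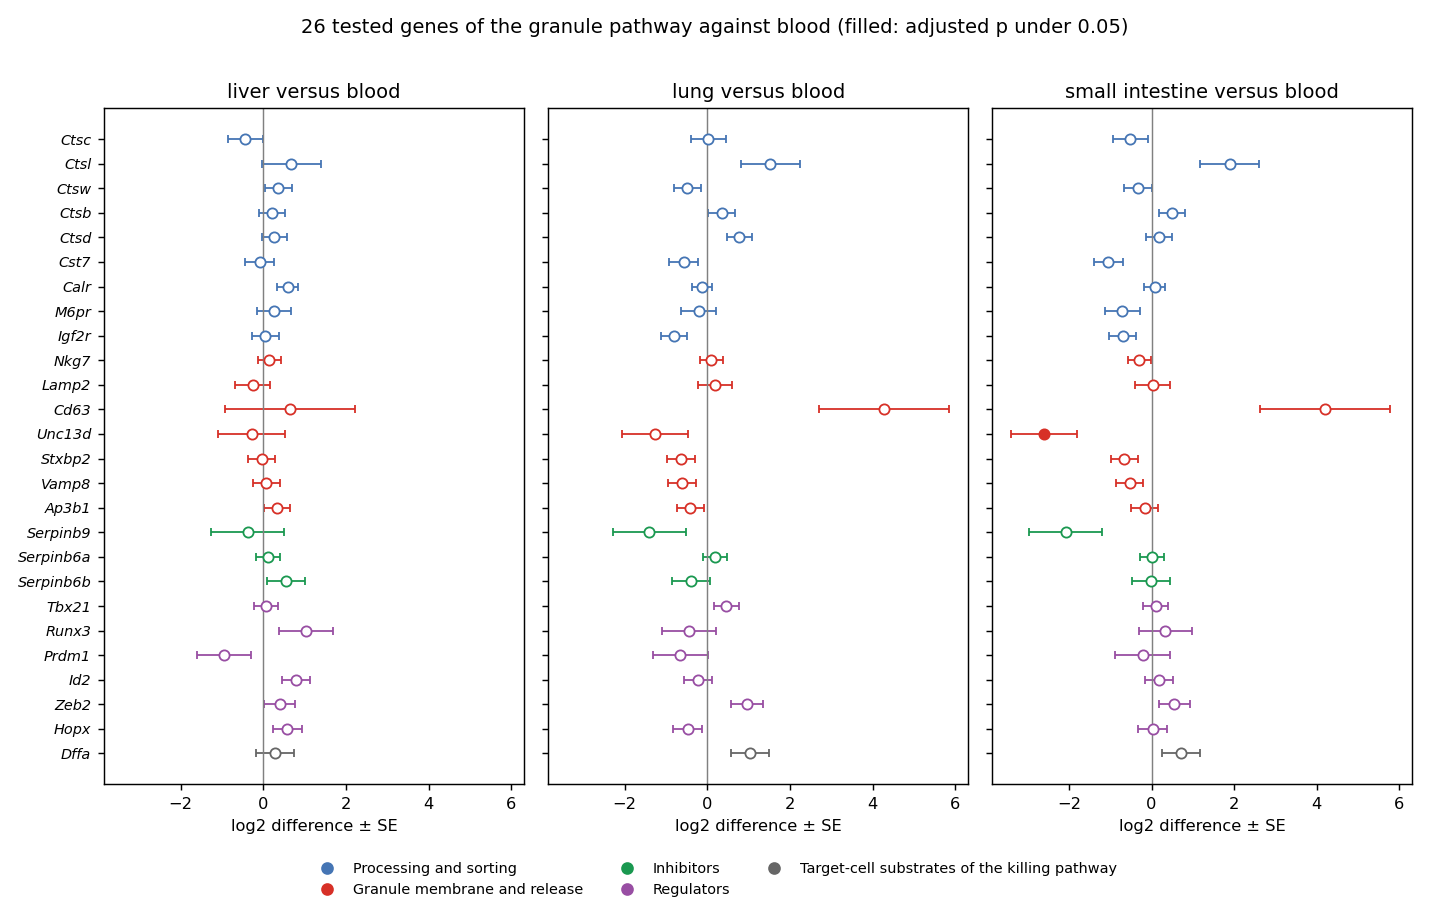
Log2 difference from blood (x axis, the same range in each panel) with its SE for the 26 tested genes of the granule pathway, in liver, lung and small intestine, coloured by role; a filled point passed an adjusted p of 0.05 in limma. Unc13d in the small intestine (-2.59) is the filled point, and Cd63 (4.28 in lung) lies farthest to the right.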

How the data were processed

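RNA of the bead-selected cells was amplified in 2 rounds, labelled with Cy3 and read on 1-colour Agilent mouse arrays (per the labels' protocols). The labels give 4 sites of 5 arrays each, with replicate numbers in the titles. The deposited scanner files hold processed signal, a background-subtracted intensity. Per the file headers, Feature Extraction 11.0.1.1 made it, but version 10.7 and Partek stand in the submitters' processing notes. Log2 values in the table the authors deposited equal quantile-normalized log2 processed signal (median absolute difference 6.31e-05, column median 8.05). That table served as an alternative.

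Log2 processed signal minus each array's 75th percentile over 43020 non-control spots was used, without 24 non-uniform spots. Probes were named through RefSeq accessions with a table of assembly GRCm38.p6, which gave 27508 of 39429 probes 1 symbol, and the brightest probe stood for a gene. Limma 3.58.1 in R 4.3.3 was fitted with 1 coefficient per site over 20 arrays (16 residual degrees of freedom), two-sided, with Benjamini-Hochberg adjustment over 8057 genes in each comparison and a threshold of 0.05. The fit was tested on simulated data. The members and lists were chosen with earlier results of these data known. Named pathway genes are those called or, where none was, the 2 with the smallest p in a comparison, and for Prf1, Gzma and Gzmb the 5 genes most correlated over the arrays. Genes with granule or marker names outside these rules were named for their role. The number of arrays limits the precision.

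Each replicate number is 1 slide holding 1 array per site. Deviations of same-numbered arrays correlated by 0.12 on average, with pairs from -0.37 to 0.56, so the numbers were not treated as pairs. Alternatives changed the normalization, scaling, background correction, filter, probe rule, variance model, block and samples. The planned normexp correction on mean signal used median signal, the spot signal that the scanner files hold. A single-probe alternative was not run, because each member had 1 probe.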

Additional observations from a re-analysis of the deposited data

Results flagged for a closer look

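In 32 groups of 5 arrays (8 genes by 4 sites), 3 held an array far from the others, and by chance about 1 in 20 groups does. Gzmc was 1.93 on lung array 2, where the other lung arrays lay between -2.66 and -1.54. Lamp1 was 3.84 on small intestine array 4, where the others lay between 5.43 and 5.95. Gzmk was -2.95 on small intestine array 3, where the others lay between -2.32 and -2.10, all of them not well above background.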

How the results depend on the processing

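Of 960 recomputed differences of the tested genes, 946 kept their side of the threshold and, where not called, moved by less than the spread between arrays. Of the rest, 9 lost a call, 1 gained one and 4 moved by more than that spread, and no called value changed sign. The 946 is no measure of stability, since many settings could not move a difference, such as omission of an array of another site. Only 1 of the 30 differences, Prf1 in small intestine against blood, was called in the main fit, so all 9 losses were its own. It stayed called in 9 of 12 settings and in 14 of 20 omissions of 1 array. The size of a called value could still move, as that of Prf1 in small intestine against blood did with normexp (-1.04), and small uncalled differences of Gzma, Gzmb, Srgn and Lamp1 changed sign in some settings. The number of the 8 genes called in small intestine against blood fell from 1 to 0 when arrays were scaled on probes bright on all arrays, when they were scaled on the T cell identity mean (Prf1 at -1.49, adjusted p = 0.133) and when no filter was used. Leaving out 1 array at a time gave 0 to 1 called in small intestine against blood, 0 to 1 in lung against blood and 0 to 1 across the 4 sites. With liver array 5 and small intestine array 5 left out, 1 gene (Prf1) was called across the 4 sites, beside 18.8% of all tested genes. The cause was not tested. With the replicate number as a block, 1 gene was called in small intestine against blood, with Prf1 at -2.05 (limma, adjusted p = 0.022), and 0 in the other comparisons, so the block changed no call. Over all tested genes, calls in small intestine against blood ranged from 18 with scaling on the T cell identity mean to 2118 with those same arrays left out, against 875, and from 0 without small intestine array 2 to 2037 without small intestine array 5. In lung against blood they ranged from 1 to 175, against 66, and from 16 without blood array 3 to 846 without lung array 1, the omission that also brought Prf1 in lung past the threshold. Signal near background limits Prf1, Gzmc and Gzmm, and no array had Gzmk well above background.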
